A study of Mus musculus with 11 samples.

Results

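Zscan4 and other genes of the two-cell stage were followed through sorted and single naive extra-embryonic endoderm (nEnd) cells of the mouse. The 10 genes were taken by name from a given list: Zscan4c, Zscan4d, Zscan4f, Tcstv1, Tcstv3, B020031M17Rik, and Gm5662, Gm8300, Gm5039 and Gm21319, which are predicted genes similar to the translation initiation factor eIF1A. All 10 were listed among the 32285 genes of the single-cell tables, and 6 were listed among the 48952 genes of the bulk table, where the 4 eIF1A-like genes did not appear under these symbols. The names were picked with the levels of these same libraries in view, so the levels below describe the genes and do not test them.

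nEnd cells are grown as an in vitro counterpart of the blastocyst's primitive endoderm (PrE) in RACL, an RPMI-based medium with Activin A, CHIR99021 and LIF. For bulk RNA-seq, live cells of the OCT4-mCherry reporter line, whose OCT4 protein carries mCherry, were labelled with an antibody to the receptor PDGFRA and sorted into Pdgfra+ cells without the reporter, double-positive (DP) cells, and Oct4+ cells with the reporter alone, with 3 libraries each and no treatment. For droplet single-cell RNA-seq, PDGFRA-positive cells of Oct4-LOF nEnd (cell line EPUc), in which 4-hydroxytamoxifen (4OHT) brings about the loss of Oct4 (gene symbol Pou5f1), were sorted and cultured without 4OHT (-4OHT) or with it (+4OHT), with 1 library each. Each arm rests on 1 engineered line. The study calls the 3 libraries of a sorted group biological replicates, but the labels do not say whether they came from separate cultures, and p-values measure the spread between these libraries.

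Zscan4 proteins carry a SCAN domain and zinc fingers, are expressed in the late two-cell embryo, and in embryonic stem (ES) cell cultures appear in short pulses in a small share of cells that resemble the two-cell embryo. In those cells the homeobox factor DUX, which itself can be induced by DPPA2 and DPPA4, binds and switches on Zscan4, Tcstv, eIF1A-like and Usp17l genes, while TRIM28, the CAF-1 complex, PRC1.6 and LSD1 (Kdm1a) hold these genes down. Tcstv1 and Tcstv3 belong to a small family named after the two-cell stage, and B020031M17Rik is a gene of unknown role.

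Most of the genes lie in clusters of near-identical copies, which sets how well reads can be given to one of them. In the GRCm38 annotation (GENCODE M21), Zscan4c lies at chr7:11005745-11010547, Zscan4d at chr7:11161374-11166159 and Zscan4f at chr7:11397915-11402318, each with 4 exons. Gm8300 (chr12:87514316-87518266), Gm21319 (chr12:87772425-87775755), Gm5662 (chr12:88270640-88274500) and Gm5039 (chr12:88320122-88324026) form another cluster, and Tcstv1 (chr13:119893388-119894785), B020031M17Rik (chr13:119949357-119950806) and Tcstv3 (chr13:120316878-120318178) one more. All 10 are annotated as protein coding. Of the 50-base windows of the transcript, 95.3% in Zscan4f, 85.5% in Zscan4c, 77.9% in Gm5662 and 49.6% in Zscan4d also occur in the transcript of another gene, against 13.5% to 31.4% in Gm21319, Tcstv1, Gm5039, Gm8300 and Tcstv3 and 2.97% in B020031M17Rik. In the last 500 bases, the stretch that 3′ single-cell reads come from, every window of Zscan4f is shared and none of Gm21319 or B020031M17Rik is. Values of the highly shared copies are therefore uncertain one by one.

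The promoter sequences show how alike the Zscan4 copies are and where they part. RefSeq sequence (GRCm38.p6) was at hand for 4 of the 10 genes. The 250 bases before the start given with it are printed 5′ to 3′ on the gene's own strand. They lie at chr7:11005495-11005744 (plus) for Zscan4c, chr7:11166149-11166398 (minus) for Zscan4d, chr7:11397665-11397914 (plus) for Zscan4f and chr12:87775756-87776005 (minus) for Gm21319. The Zscan4d stretch reaches into its GENCODE interval, which ends at 11166159, so the start used here differs from the GENCODE start. Capitals mark TGATTNAAT, part of the sequence that DUX is known to recognise, searched on both strands, or in Zscan4d the bases aligned to it.
Zscan4c: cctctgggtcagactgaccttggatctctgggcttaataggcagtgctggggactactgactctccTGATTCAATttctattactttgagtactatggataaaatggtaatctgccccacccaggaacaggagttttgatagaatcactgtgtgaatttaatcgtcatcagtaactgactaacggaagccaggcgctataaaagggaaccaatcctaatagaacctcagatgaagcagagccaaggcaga
Zscan4d: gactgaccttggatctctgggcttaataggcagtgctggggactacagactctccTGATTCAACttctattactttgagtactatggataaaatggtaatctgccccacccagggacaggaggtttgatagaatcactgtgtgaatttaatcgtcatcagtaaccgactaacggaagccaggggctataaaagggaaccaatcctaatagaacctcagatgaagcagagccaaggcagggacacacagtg
Zscan4f: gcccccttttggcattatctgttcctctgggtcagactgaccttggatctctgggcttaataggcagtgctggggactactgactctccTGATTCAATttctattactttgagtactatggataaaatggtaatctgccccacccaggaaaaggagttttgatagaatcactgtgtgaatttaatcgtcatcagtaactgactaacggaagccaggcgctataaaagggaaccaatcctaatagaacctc
Gm21319: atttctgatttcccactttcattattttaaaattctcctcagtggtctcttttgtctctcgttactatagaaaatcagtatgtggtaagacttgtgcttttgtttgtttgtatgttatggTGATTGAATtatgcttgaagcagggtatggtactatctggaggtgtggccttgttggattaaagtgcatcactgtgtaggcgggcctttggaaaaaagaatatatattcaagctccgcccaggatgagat
Aligned without gaps, Zscan4c and Zscan4f were identical at 226 of 227 shared positions (99.6%), Zscan4c and Zscan4d at 232 of 239 (97.1%), and Zscan4d and Zscan4f at 209 of 216 (96.8%). The motif was present in 3 of the 4 sequences, beginning 184 bases before the start in Zscan4c, 161 in Zscan4f and 130 in Gm21319. At the aligned place, which begins 195 bases before its start, Zscan4d holds TGATTCAAC, which differs by T9C, counted from the 5′ end of the motif. The same motif occurs in the 250 bases before the start in 216 of 32851 promoters (0.658%).

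The bulk libraries held 8019631 to 11642571 reads, and replicates of each group differed beyond sampling noise, at a chi-square of 16.7 to 36.6 per degree of freedom. Pou5f1 followed the sort, at 981 ± 142 CPM (counts scaled to 1000000 per library; mean ± SD, n = 3) in Oct4+, 229 ± 90.3 in DP and 17.5 ± 9.0 in Pdgfra+. Pdgfra was at 7.43 ± 4.07 CPM in Oct4+, 590 ± 153 in DP and 729 ± 219 in Pdgfra+. All 10 Epi markers tested were called higher and all 10 endoderm markers lower in Oct4+ than in Pdgfra+ in the edgeR fit. Of 5 feeder markers tested 3 were called higher and 1 lower, and without Oct4+ replicate 1 Col1a1 (log2 fold change 1.92, edgeR adjusted p of 0.123) and Col1a2 (1.09, 0.235) lost their calls. Col1a2 also lost it without any 1 Pdgfra+ library (adjusted p from 0.0535 to 0.0624). Of 5 trophectoderm markers tested 3 were called higher and 1 lower, and Gata3 lost its call without Oct4+ replicate 3 (adjusted p of 0.0759) or Pdgfra+ replicate 1 (0.0618). The single-cell libraries held 6896 barcodes (-4OHT; median 15592 UMIs, unique molecular identifiers) and 7283 barcodes (+4OHT; median 11825), with 21 barcode sequences in both, none of them with 3 or more of the 10 genes. Pou5f1 had a UMI in 36.9% of -4OHT barcodes and in 2.94% of +4OHT barcodes. The -4OHT library was not purely endodermal: by a fixed marker rule, 4151 barcodes (60.2%) had most of their marker UMIs on epiblast (Epi) genes and 1505 (21.8%) on endoderm genes, against 73 (1.002%) and 6451 (88.6%) in +4OHT.

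In the sorted populations the two-cell genes were RNAs of the Oct4+ cells. Zscan4d, the copy best known from the two-cell embryo, was at 95.3, 226 and 389 CPM in Oct4+ replicates 1 to 3, at 2.37, 6.61 and 1.96 in DP and at 0.366, 0.996 and 0.313 in Pdgfra+. Zscan4c, the copy best known from ES cells, was at 42.6, 99.4 and 190 CPM in Oct4+, at 0.125, 2.48 and 0.654 in DP and at 0.366, 0.0996 and 0.104 in Pdgfra+. Zscan4f was at 24.2, 47.8 and 76.1 CPM in Oct4+, at 0, 1.18 and 0.654 in DP and at 0.244, 0.399 and 0.104 in Pdgfra+. For all 3 copies every Oct4+ library lay above every other library, whereas DP and Pdgfra+ overlapped for Zscan4c and Zscan4f and not for Zscan4d. In bulk samples, fewer expressing cells and less RNA per cell cannot be told apart.

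The Tcstv genes followed the same order at lower levels. Tcstv3 was at 7.21, 32.4 and 32.9 CPM in Oct4+, at 0.499, 0.354 and 0.131 in DP and at 0.122, 0.0996 and 0 in Pdgfra+. Tcstv1 was at 1.16, 1.68 and 2.00 CPM in Oct4+, at 0.249 in DP replicate 1 and at 0 in the other 5 libraries. B020031M17Rik had 4, 30 and 13 reads in Oct4+ (0.310, 2.96 and 1.44 CPM) and none in any DP or Pdgfra+ library, and it did not pass the filter on low counts. Per kilobase of transcript, the mean Oct4+ level ran from 104 CPM for Zscan4d and 48.6 for Zscan4c through Tcstv3 (31.1) and Zscan4f (27.0) to B020031M17Rik (1.70) and Tcstv1 (1.26). Among neighbours in this order, the 3 Oct4+ libraries overlapped at every step other than that from Zscan4f to B020031M17Rik. These ranges pool libraries in which the genes were measured together. Within each Oct4+ library Zscan4d lay above Zscan4c in CPM, at transcript lengths of 2.272 and 2.276 kb. The other steps were not compared within libraries.

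**Figure D1:**
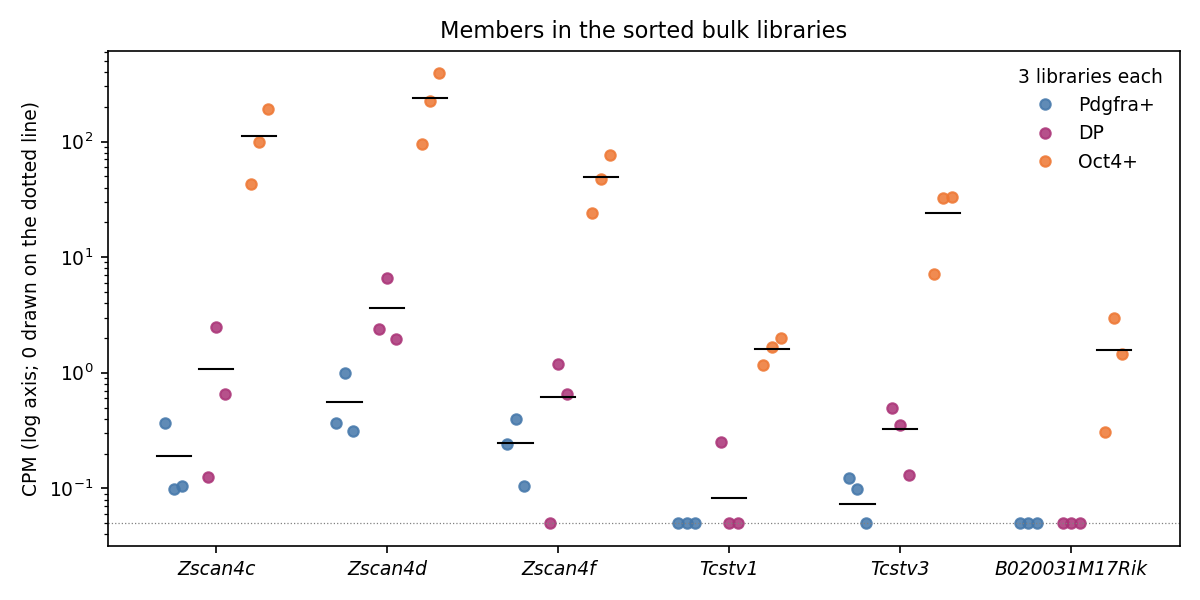
CPM (log axis, 0 drawn on the dotted line) of the 6 genes found in the bulk table, with 1 point per library and a bar at the mean of the 3 libraries of a group. Every Oct4+ point lies above every DP and Pdgfra+ point of the same gene, with Zscan4d highest at 95.3 to 389 CPM and Tcstv1 lowest among the genes tested at 1.16 to 2.00 CPM.

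Summed over libraries, Zscan4c had 3270 reads in Oct4+ against 5 in Pdgfra+, a ratio of 567 after scaling (95% exact interval from counting error alone, 243 to 1748). The ratio was 381 for Zscan4d (235 to 667), 184 for Zscan4f (89.0 to 458) and 312 for Tcstv3 (86.0 to 2579). For genes at 0 in all 3 Pdgfra+ libraries only a bound could be given, set against 3 reads over the group: Tcstv1 was at least 14.5-fold and B020031M17Rik at least 13.6-fold higher in Oct4+. In the edgeR fit, Zscan4c differed by 9.15 ± 0.93 on the log2 scale (SE), Zscan4d by 8.66 ± 0.75, Zscan4f by 7.54 ± 0.77, Tcstv3 by 8.14 ± 0.87 and Tcstv1 by 6.91 ± 1.18. A gene was called where its adjusted p (Benjamini-Hochberg) fell below 0.05 and its log2 fold change passed 1.5. All 5 tested genes were called higher in Oct4+ than in Pdgfra+, where 17.3% of the 14185 genes tested were called higher and 14.7% lower, and all 6 had every Oct4+ library above every Pdgfra+ library, as did 34.8% of the genes tested. All 5 were also called lower in DP than in Oct4+, where 14.6% of genes were called lower and 13.1% higher, and all 6 had every DP library below every Oct4+ library, as did 31.9%. These counts follow from how the genes were picked and from the filter, which the genes passed only through Oct4+.

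The comparison of DP with Pdgfra+ asked whether the two-cell genes were already raised in endoderm cells that carry the OCT4 reporter. None of the 5 tested genes was called by edgeR, at a background of 3.2% of genes called higher and 0.691% lower in DP. Zscan4d alone had an unadjusted edgeR p below 0.05, and DESeq2 called it alone. Over all genes DESeq2 called 914, and the share at that unadjusted p is not given here. Zscan4d had 90 reads in DP against 16 in Pdgfra+, a ratio of 6.48 (3.78 to 11.8, counting error only), with a log2 fold change of 2.66 ± 0.84 and an adjusted p of 0.0868 by edgeR's quasi-likelihood test. DP and Pdgfra+ libraries were taken as paired by replicate number, which was read from the counts and is not given by the labels. With the number as a block over all 9 libraries Zscan4d was called, at a log2 fold change of 2.72 and an edgeR adjusted p of 0.0470. Thus 1 of 5 genes was called, and 598 genes in all. With the block over the 6 libraries compared, Zscan4d had an edgeR adjusted p of 0.0184. It was also called without Oct4+ replicate 1 (adjusted p of 0.0496). Zscan4c had 27 reads against 5, a log2 fold change of 2.53 ± 1.30 and an adjusted p of 0.254, and 21 of the 27 reads came from DP replicate 2. Tcstv3 (8 reads against 2) and Tcstv1 (2 reads against 0) gave log2 fold changes of 2.01 ± 1.25 and 2.85 ± 1.68 with adjusted p-values of 0.341 and 0.325, and Zscan4f (15 against 7) gave 1.26 ± 1.04 with 0.480. Every DP library lay above every Pdgfra+ library for Zscan4d and Tcstv3, as it did for 17.4% of the genes tested. The median over the 5 genes was 2.53 on the log2 scale, against 0.02 over all genes tested. The mean DP level was 0.981% (Zscan4c) to 5.16% (Tcstv1) of the Oct4+ mean in the 5 genes with DP reads. Beside these reads, 9 of 10 Epi markers were called higher in DP than in Pdgfra+, and their part in the result was not tested.

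Read counts summed over copies do not depend on which of the summed copies a read was given to. How reads shared between genes were counted is not known, so some doubt stays with the sums. All 10 symbols that begin with Zscan4 summed to 446, 1021 and 1779 CPM in Oct4+, to 8.48, 25.8 and 11.4 in DP and to 1.22, 4.88 and 1.57 in Pdgfra+. The DP libraries all lay above the Pdgfra+ libraries, with a log2 fold change of 2.54 ± 0.68 and an edgeR adjusted p of 0.0530. The sum was called with the replicate block (2.61 ± 0.48, adjusted p of 0.0258), and also without DP replicate 1, Oct4+ replicate 1 or Oct4+ replicate 3 (adjusted p from 0.0394 to 0.0443). Of the 10 copies, 9 were tested and all 9 were called higher in Oct4+ than in Pdgfra+, where 17.3% of all genes tested were so called. None of the 9 was called in DP against Pdgfra+ by edgeR, and 7 had an unadjusted p below 0.05. The block called 3 (Zscan4-ps3, Zscan4b and Zscan4d) and DESeq2 called 5. Over all genes the block called 598 and DESeq2 914, and the share at that unadjusted p is not given here. Copies that share sequence may share reads, so the 9 are not separate counts. Tcstv1 and Tcstv3 together gave 2.32 ± 1.23 in DP against Pdgfra+, with an adjusted p of 0.268. The bulk table lists 17 symbols of the form Eif1ad followed by a number, and no table here pairs them with the 4 eIF1A-like genes. Of these, 12 were tested, and all 12 were called higher in Oct4+ than in Pdgfra+, against the same 17.3%. Like the 9 Zscan4 copies, these 12 passed the filter on low counts mainly through Oct4+, so that the filter favours these calls. In DP against Pdgfra+ edgeR called none of the 12, 6 had an unadjusted p below 0.05, the block called 1 and DESeq2 called 4. The same counts over all genes, and the same doubt on shared reads, stand beside these. Their sum, taken after the data were seen, was called higher in DP at 3.10 ± 0.73 with an edgeR adjusted p of 0.0367, and lost the call without DP replicate 2 or 3 or any 1 Pdgfra+ library (adjusted p from 0.0613 to 0.128). Eif1ad15 stood at 89.5, 217 and 401 CPM in Oct4+, close to the Zscan4d values library by library.

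The 3 Oct4+ libraries did not carry the same amount of these RNAs. All 6 genes were lowest in Oct4+ replicate 1, and 5 of them were highest in replicate 3, at 1.72 times (Tcstv1) to 4.57 times (Tcstv3) the lowest value. B020031M17Rik was highest in replicate 2, at 9.54 times its value in replicate 1. Among 22 other two-cell genes with reads in Oct4+, 17 were lowest in replicate 1, as were 16 of the 17 numbered Eif1ad symbols, as against 33.7% of the genes tested that had Oct4+ reads. The ratio of replicate 3 to replicate 1 had a median of 4.27 in the Eif1ad symbols, of 1.93 (0 to 8.96) in the other two-cell genes and of 1.01 over the genes tested. Tdpoz4, at 8.76, 12.9 and 5.76 CPM, and Tdpoz1, at 0.542, 0.592 and 0.222, were among the genes lowest in replicate 3. None of the 10 Epi marker genes was lowest in replicate 1, and their median ratio was 0.769. These counts describe 3 libraries and were not tested. Listed markers of feeder fibroblasts also moved between these libraries. Col1a1 was at 68.3, 5.23 and 2.66 CPM in replicates 1 to 3, Col1a2 at 37.0, 5.72 and 0.887 and Postn at 10.2, 0 and 0.111. Thy1 was at 12.8, 7.39 and 3.66 and Fbn1 at 12.9, 6.31 and 5.87, whereas Lum, with 1, 0 and 8 reads, was highest in replicate 3. Fbn1 was higher in Pdgfra+ (70.2, 139 and 35.2 CPM), and Thy1 stood at 0, 0.199 and 0 there. Whether either gene traces feeder cells was not tested. Replicate 1 had the most reads (11642571) and replicate 3 the fewest (8019631). The part of feeder RNA and of depth in the spread was not tested.

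Among genes known to regulate the two-cell programme, Dppa2, Dppa4, Nelfa and Tbx3 had reads in all 3 groups, and Dux in Oct4+ and DP. Dppa2 was at 157, 118 and 145 CPM in Oct4+, at 18.7, 35.1 and 47.7 in DP and at 6.71, 4.58 and 2.92 in Pdgfra+. It was called higher in DP than in Pdgfra+ (log2 fold change 2.84 ± 0.37, edgeR adjusted p of 0.0101), as was Dppa4 (2.38 ± 0.37, adjusted p of 0.0131). Nelfa, a subunit of the elongation-pausing factor NELF, was called higher in Oct4+ than in either other group, and DP and Pdgfra+ lay at 61.5 ± 2.87 and 58.5 ± 2.21 CPM. Of the 4 activators tested, 3 were called higher in Oct4+ than in Pdgfra+, 2 higher in DP than in Pdgfra+ and 2 lower in DP than in Oct4+, and Tbx3 was called in none. Dux, listed as Duxf3, was at 4.73, 8.18 and 8.87 CPM in Oct4+, at 0.125, 0.826 and 0.131 in DP and at 0 in all 3 Pdgfra+ libraries, and its adjusted p in DP against Pdgfra+ was 0.0901. Every DP library lay above every Pdgfra+ library for Dppa2, Dppa4, Tbx3 and Duxf3, as in 17.4% of the genes tested, and the libraries of these groups overlapped for Nelfa.

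Other genes of the programme were also highest in Oct4+. Of 28 other two-cell genes listed, 17 were tested, and all 17 were called higher in Oct4+ than in Pdgfra+ and lower in DP than in Oct4+, where 17.3% and 14.6% of all genes were so called, with a median log2 fold change of 8.09 in the first comparison against 0.01 over all genes tested. Like the 5 genes above, these 17 passed the filter on low counts mainly through Oct4+, so that the filter favours these calls. Trim43a had no read in DP or Pdgfra+, and Gm4340 had none in DP and 1 in Pdgfra+. In DP against Pdgfra+ the deubiquitinase gene Usp17lc alone was called (3.14 ± 0.79, edgeR adjusted p of 0.0442), 9 of the 17 had an unadjusted p below 0.05, and the median was 2.84. The replicate block called 5 of the 17 (Usp17lc, Tdpoz3, Tmem92, Gm20767 and Arg2) and DESeq2 called 9. Over all genes the block called 598 and DESeq2 914, and the share at that unadjusted p is not given here. Usp17lc lost its edgeR call without DP replicate 2 or 3, Oct4+ replicate 1 or 2 or any 1 Pdgfra+ library (adjusted p from 0.0528 to 0.157). Usp17lc was at 1.37, 4.96 and 1.44 CPM in DP and at 0, 0.299 and 0.522 in Pdgfra+. Of 14 repressors of the programme, edgeR called Trim28 alone, higher in Oct4+ (2030, 2122 and 1925 CPM) than in Pdgfra+ (465, 500 and 615; log2 fold change 1.94 ± 0.14, adjusted p of 4.5e-06) and DP. Rif1, a telomere-binding and chromatin factor, was just under the fold in DP against Oct4+ (-1.46, edgeR adjusted p of 0.00054) and was called there by DESeq2, without DP replicate 2 (-1.72) and without Oct4+ replicate 3 (-1.63), and in Oct4+ against Pdgfra+ without Oct4+ replicate 3 (1.53). None of the 14 was called in DP against Pdgfra+ by edgeR or DESeq2, although 4 had an unadjusted p below 0.05, and their medians were 0.45 in Oct4+ against Pdgfra+ and -0.04 in DP against Pdgfra+.

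In the single-cell libraries, where there was 1 library per condition and no test, the 10 genes took 139 UMIs of every 1000000 (CPM) without 4OHT and 14.5 with it. Zscan4d had 1392 UMIs in -4OHT (12.9 CPM) and 54 in +4OHT (0.566), a ratio of 22.9 (17.4 to 30.6, exact 95% interval, counting error only). Zscan4c had 655 UMIs against 54, a ratio of 10.8 (8.14 to 14.5). Zscan4f had 34 UMIs against 1, and its ratio of 30.1 had an interval from 5.06 to 1225. The low count of Zscan4f stood beside the full sharing of its last 500 bases with other copies, and the part of that sharing was not tested. The 4 eIF1A-like genes had the most UMIs of the families: Gm5039 had 4702 against 333 (ratio 12.5), Gm8300 had 2127 against 100 (18.9), Gm21319 had 1586 against 85 (16.5) and Gm5662 had 1545 against 117 (11.7). Of 9 genes with at least 1 CPM in a library, 8 were past a log2 ratio of 1.5, as were 12.5% of all such genes. Zscan4c, Zscan4d, Tcstv1 and Gm21319 were under 1 CPM in +4OHT and reached that level only through -4OHT. That cut, and the choice of the genes with these levels known, favour this count. The libraries differed in make-up, with 60.2% of barcodes epiblast-led in -4OHT and 1.002% in +4OHT. At least 3 of the 10 genes were found in 130 of 4151 epiblast-led barcodes of -4OHT (3.13%, interval 2.62% to 3.71%). In +4OHT they were found in 1 of 73 (1.37%, 0.0347% to 7.40%), and these intervals overlap. Among endoderm-led barcodes the counts were 7 of 1505 and 0 of 6451. The part of make-up in the ratios was not tested.

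Single barcodes held much of each gene's UMIs in +4OHT. One held 53.7% of the Zscan4c UMIs there and 48.2% of those of Zscan4d, and with the top barcode of each library left out, an alternative chosen after the data were seen, the ratios became 21.6 and 38.7. Those of the 4 eIF1A-like genes became 18.8 (Gm5039) to 31.8 (Gm8300). Tcstv3 had 814 UMIs in -4OHT and 322 in +4OHT, a ratio of 2.24 (1.97 to 2.56) that did not pass the fold, yet 1 barcode held 77.0% of the +4OHT UMIs. Without the top barcodes the ratio was 8.73. B020031M17Rik had 1681 UMIs against 242, a ratio of 6.16, and 1 barcode in each library held 25.3% and 90.9% of them. Without these the ratio was 50.6. Tcstv1 had 457 UMIs against 77, a ratio of 5.26 that became 13.0 without the top barcodes. In all 10 genes the -4OHT library was the higher, with or without its top barcode.

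Few barcodes carried each gene. In -4OHT, the share with a UMI was 6.09% for Gm5039 (420 barcodes), 3.63% for Gm8300, 3.35% for Gm5662, 3.13% for Gm21319, 2.90% for Zscan4d (200 barcodes; 2.52% to 3.32%) and 2.07% for Zscan4c (143; 1.75% to 2.44%). It was 2.65% for B020031M17Rik, 1.84% for Tcstv3, 1.48% for Tcstv1 and 0.377% for Zscan4f. In +4OHT, the number of positive barcodes ran from 1 (Zscan4f) through 4 each for Zscan4c and Zscan4d to 18 (Gm5039). Most positive barcodes were positive for little: 692 had exactly 1 of the genes, 660 of these held a single UMI of it, and in 208 (30.1%) that gene was Gm5039. In endoderm-led barcodes, a type not known for these genes, 9.57% had a UMI of any of the 10 at a median of 14463 UMIs, against 16.9% of epiblast-led barcodes at a median of 18538. The share in endoderm-led barcodes of +4OHT was 0.558% at a median of 12450 UMIs. In -4OHT, barcodes with 1 or 2 of the genes had nearly the same make-up of two-cell UMIs (65.6% eIF1A-like, 14.3% Zscan4, 10.4% B020031M17Rik, 9.74% Tcstv) as those with 3 or more (66.5%, 13.9%, 11.3% and 8.38%). In +4OHT the 41 barcodes with 1 or 2 genes held 51.9% eIF1A-like, 1.85% Zscan4, 18.5% B020031M17Rik and 27.8% Tcstv. The 7 with 3 or more held 45.6%, 8.11%, 17.4% and 28.85%. The source of single UMIs was not tested, and a single UMI of one gene was not read as expression by that cell.

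Barcodes with at least 3 of the 10 genes held nearly all of the signal. In -4OHT there were 181 of them (2.62%, exact 95% interval 2.26% to 3.03%), and they held 92.7% of the 14993 two-cell UMIs. Their two-cell UMIs ran from 3 to 739 with a median of 28, and 38 barcodes with at least 8 of the genes held 48.2% of the UMIs. In the top barcode 5.79% of all UMIs came from the 10 genes. In +4OHT there were 7 such barcodes (0.0961%, 0.0387% to 0.198%), which held 96.1% of 1385 UMIs. After thinning to 5000 UMIs per barcode, which left out 1329 barcodes of -4OHT and 710 of +4OHT, the shares were 1.78% and 0.0761%.

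**Figure D2:**
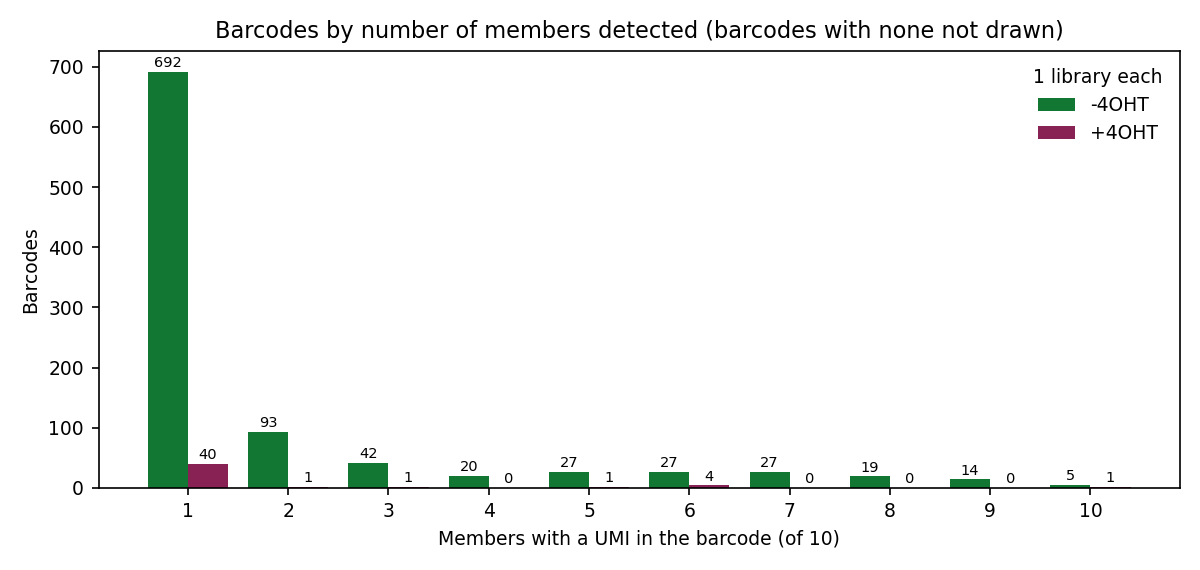
Number of barcodes by how many of the 10 two-cell genes had a UMI in them, in the -4OHT and +4OHT libraries (1 library each, counts above the bars, barcodes with none not drawn). In -4OHT, 692 barcodes had 1 gene and 93 had 2, followed by a tail of 181 with 3 to 10 genes. In +4OHT the tail held 7 barcodes.

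Most of these barcodes were epiblast-led. Of 4151 epiblast-led barcodes in -4OHT, 130 carried at least 3 of the genes (3.13%; 2.62% to 3.71%), against 7 of 1505 endoderm-led barcodes (0.465%; 0.187% to 0.956%). Thinned to 5000 UMIs the shares were 2.17% and 0.209%. None of 20 feeder-led barcodes carried 3 genes, which allows a share of up to 15.0% at 3 counts (exact 95% interval up to 16.8%). The other 44 were among 1220 barcodes with too few marker UMIs to place (3.61%; 2.63% to 4.81%), where the interval overlaps that of epiblast-led barcodes. They made up 24.3% of the 181 and had a median of 1596 UMIs and 9.72% mitochondrial UMIs, whereas unplaced barcodes without any of the genes had a median of 53.7% mitochondrial UMIs. Across all 181 barcodes the medians were 13519 UMIs, 3304 genes and 7.28% mitochondrial UMIs, against 18290, 4266 and 5.22% in epiblast-led barcodes with none of the genes. Free RNA, doublets and damaged cells were not separated further.

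The families were found together. All 181 barcodes had an eIF1A-like gene, 141 (77.9%) had Zscan4, 88 (48.6%) had Tcstv and 74 (40.9%) had B020031M17Rik. All 4 families were found in 46 barcodes, 3 in 47, 2 in 71 and eIF1A-like genes alone in 17. The 181 were chosen for having at least 3 of these genes, which only the Zscan4 and eIF1A-like families can reach alone. The family counts therefore follow in part from the choice, unlike the pairs below, which cover all barcodes of -4OHT. Gene by gene, 56.6% of Zscan4c-positive barcodes also had Zscan4d, whereas 1.76% of Zscan4c-negative barcodes did, and 40.5% of Zscan4d-positive barcodes had Zscan4c. Of Zscan4c-positive barcodes 63.6% had Gm5039, and of the far more frequent Gm5039-positive barcodes 21.7% had Zscan4c. Pairs within a family shared a median of 46.6% of the positive barcodes of the first gene (9.50% to 73.1%), and pairs from different families 34.5% (4.76% to 76.9%). Near-identical copies may take reads from each other, so that pairs within a family are the less certain. Tcstv1 and Tcstv3, which share fewer windows, were found together in 38.2% of Tcstv1-positive barcodes, and 44.1% of these had Zscan4d.

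**Figure D3:**
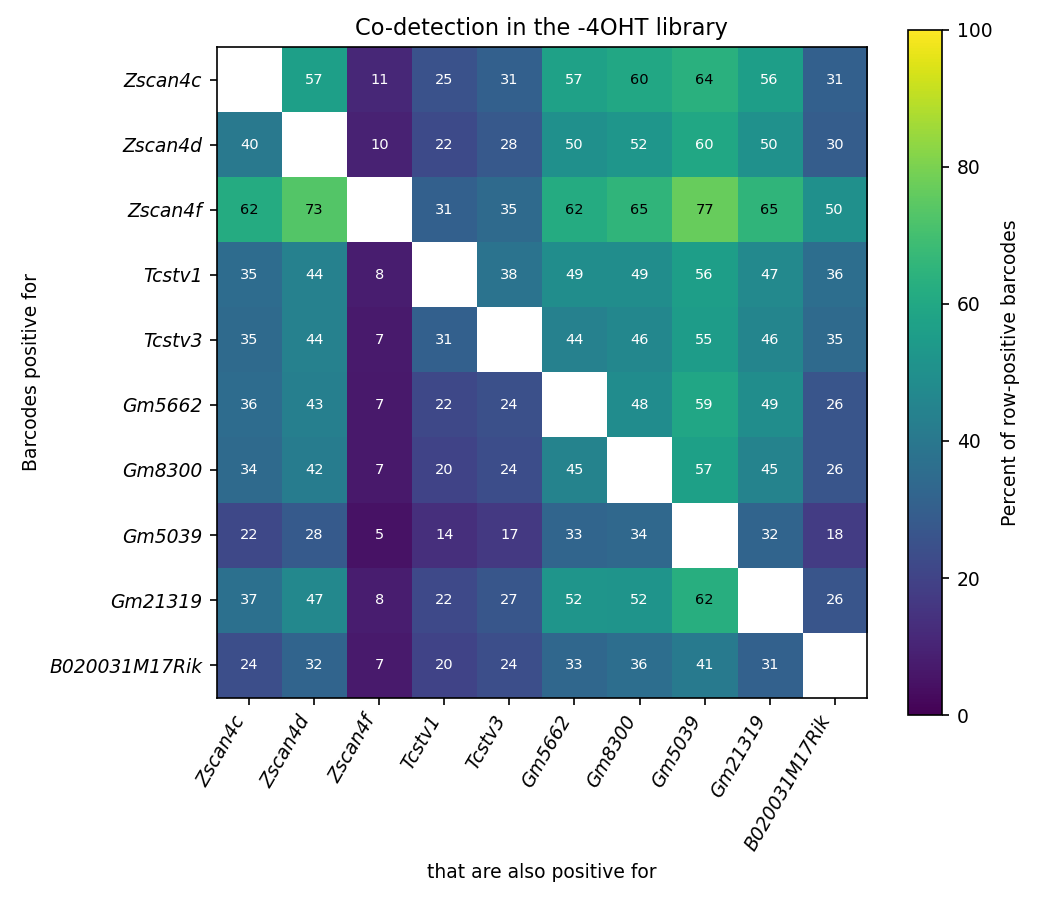
Percent of the barcodes positive for the gene of a row that were also positive for the gene of a column, in the -4OHT library. Rows of Zscan4c, Zscan4d and Gm21319 are bright against the eIF1A-like columns (Zscan4c with Gm5039, 63.6%), and the Zscan4f column is dark throughout, with 26 barcodes positive for that gene.

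The families did not rise in fixed proportion within the 181 barcodes. On log counts, Pearson's r was 0.720 between summed Zscan4 and summed eIF1A-like UMIs and 0.568 between Tcstv and B020031M17Rik. It was 0.428 between eIF1A-like and B020031M17Rik, 0.419 between Zscan4 and B020031M17Rik, 0.398 between Tcstv and eIF1A-like and 0.312 between Zscan4 and Tcstv. Zscan4 and eIF1A-like levels thus had the highest r, and Zscan4 and Tcstv the lowest. The families also differed in how many of the 181 barcodes held them, from 40.9% for B020031M17Rik to 100% for eIF1A-like. The part of zeros, and of choosing the barcodes on the same counts, was not tested. The barcodes share 1 library and differ in depth, and these correlations describe them only.

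**Figure D4:**
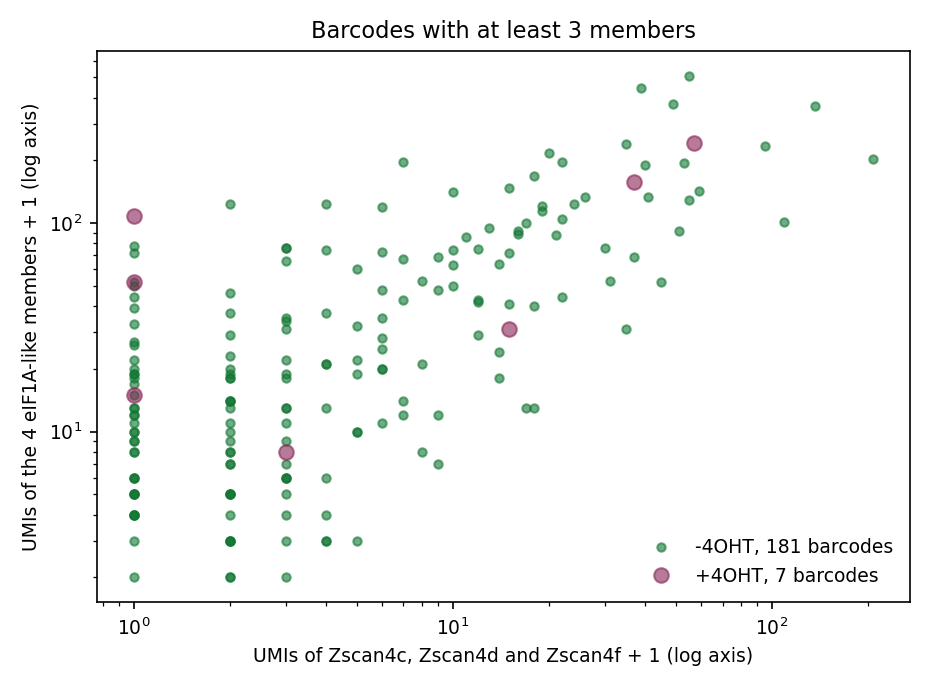
UMIs of the 3 Zscan4 genes against UMIs of the 4 eIF1A-like genes, each plus 1 on a log axis, with 1 point per barcode that had at least 3 of the 10 genes (181 in -4OHT, 7 in +4OHT). Both counts rise together, and 3 of the 7 +4OHT barcodes stand at 0 Zscan4 UMIs.

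The 7 barcodes of the +4OHT library were examined one by one. The first had all 10 genes with 602 two-cell UMIs, 5.65% of its UMIs, of which 56 were Zscan4, 85 Tcstv, 241 eIF1A-like and 220 B020031M17Rik. The second had 358 two-cell UMIs, of which 299 were Tcstv and none Zscan4, and the third had 193, of which 36 were Zscan4 and 157 eIF1A-like. The other 4 had 110, 44, 14 and 10. None of the 7 had a Pou5f1 UMI, where 2.94% of all +4OHT barcodes had one. Of the 181 barcodes of -4OHT 68 had one, where 36.9% of all -4OHT barcodes did. The first was epiblast-led with 15 Epi marker UMIs, and the other 6 had 0 to 4, too few to place them. Dppa2 had 37 UMIs in the first, 24 in the second, 52 in the fifth and 0 to 4 in the other 4. No endoderm-led barcode of +4OHT had 3 of the genes (0 of 6451, which allows a share of up to 0.0465% at 3 counts; exact 95% interval up to 0.0572%).

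Beyond the 10 genes, barcodes with at least 3 of them were compared with 3449 epiblast-led barcodes of -4OHT that had none. Of all 9934 genes with at least 5 CPM in either set, 4.32% were higher past a log2 ratio of 1.5 and 0.856% lower. All 20 of the other two-cell genes at this level were past the fold, with a median log2 ratio of 8.22 against -0.15 over all genes, as were 4 of 4 further eIF1A-like genes (median 9.84). The 20 were at 0.958 CPM or less in the barcodes without the genes and so reached 5 CPM through the chosen barcodes, which fixed the count. Gm20767 was at 352 CPM against 0.958, Tmem92 at 123 against 0.320, the deubiquitinase gene Usp17la at 113 against 0.456, the nuclear body gene Sp110 at 113 against 0.350 and the zinc finger gene Zfp352 at 50.04 against 0.0456. Duxf3, the inducer, was at 34.6 against 0.730 and had a UMI in 58 of the 181 barcodes. Among the activators Dppa2 alone was past the fold, at 693 (662 to 725) against 189 CPM, while Dppa4 (67.3 against 80.9), Nelfa (53.4 against 62.6) and Tbx3 (123 against 103) were not. None of 14 repressors was: Trim28 was at 513 against 325, Rif1 at 766 against 485 and Chaf1b, a CAF-1 subunit, at 26.7 against 44.6.

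None of 10 Epi markers was past the fold in these barcodes. Pou5f1 was at 39.9 against 47.7 CPM, the naive factor Klf2 at 490 against 268, Nanog at 266 against 176, Zfp42 at 474 against 465 and Sox2 at 213 against 340. Of 6 endoderm markers at this level, 3 were past the fold: the adaptor gene Dab2 (56.8 against 13.0), and Cubn (26.3 against 5.78) and Amn (32.4 against 5.37), which encode an endocytic receptor pair of visceral endoderm. In the 130 epiblast-led barcodes alone, Dab2 was at 11.2, Cubn at 8.20 and Amn at 7.34, no longer past the fold, and the fold of Dppa2 was 3.77 against 3.67 in all 181. This choice of barcodes was made after the data were seen, and it leaves out barcodes rich in endoderm markers by construction. Among feeder markers, Thy1 (9.03 against 1.19) was past the fold and Col1a1, Col1a2 and Col3a1 were at 0.376 to 1.13 CPM. Among trophectoderm markers, Ascl2 (6.77 against 1.54) was past the fold, while Gata3 and Elf5 were at 0.

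**Figure D5:**
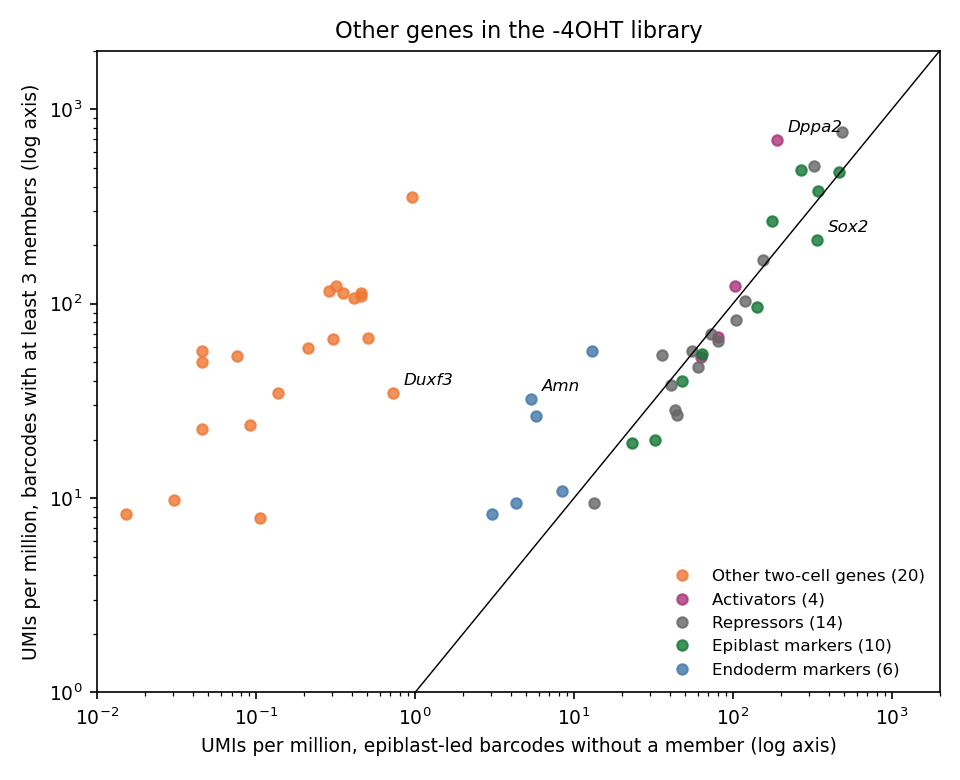
CPM of UMIs in the 181 barcodes with at least 3 of the two-cell genes against those in epiblast-led barcodes with none, -4OHT library, both on log axes with the line of equal values, for listed genes with at least 5 CPM in 1 of the sets. The other two-cell genes lie far above the line (Duxf3 at 34.6 against 0.730), and Epi markers and repressors lie along it.

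The genes most like the 10 across the 6896 barcodes of -4OHT were ranked by Pearson's r with their summed level over 16302 genes. The first 10 were Zscan4-ps2 (0.666), Gm2016 (0.659), Gm20767 (0.652), Platr31 (0.639), Gm6803 (0.624), Tmem92 (0.584), Gm2022 (0.564), Zscan4-ps1 (0.563), Zscan4-ps3 (0.557) and Ccser1 (0.555). Zscan4-ps1, -ps2 and -ps3 are annotated pseudogene copies of Zscan4, and Gm2016 and Gm2022 are further eIF1A-like genes, so that reads of the 10 genes may be among theirs. Platr31 is a long non-coding RNA gene named for its expression in pluripotent cells, and it had a UMI in 112 of the 181 barcodes (61.9%) and in 2.23% of all others. Ccser1 was the broadest, with 62.5% of its UMIs in the 181 barcodes, against 75.1% for Platr31 and 84.0% to 95.4% for the other 8. In +4OHT, Ccser1 alone of these was found in at least 20 barcodes, with an r of 0.184. These correlations rest on sparse counts from 1 library and describe it only.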

How the data were processed

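Bulk values were raw read counts per gene symbol, deposited by the authors for 9 stranded libraries. For these, the aligner, the counter, the build and the strand setting were not given in the sources used here. Single-cell values were raw UMI counts per gene and barcode, which the authors deposited for 2 libraries; per the file headers they came from Cell Ranger 6.1.2, and the submitters' processing notes name the mm10 build. The bulk table held 35 blank lines, which were left out. Groups came from the sample labels.

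Bulk counts were filtered with filterByExpr (14185 of 48952 genes kept), scaled by TMM and fitted over all 9 libraries with group as the term by edgeR 4.0.16 in R 4.3.3, with the quasi-likelihood test. SE was the log2 fold change over the square root of F. CPM used TMM-scaled totals. The study used DESeq2, here an alternative (1.42.0). Deviations of libraries with the same replicate number correlated across genes between DP and Pdgfra+ (0.271, 0.477 and 0.321), and on that basis, read from the counts, DP and Pdgfra+ were taken as paired by number. The steps were tested on simulated data.

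Single-cell barcodes were used as deposited, with no doublet caller. A barcode was placed with the list (Epi, endoderm or feeder markers) that had the most UMIs in it, with at least 5; 6 epiblast-led and 10 endoderm-led barcodes of -4OHT lay within 2 UMIs of the cut. Shares have exact (Clopper-Pearson) and levels exact Poisson 95% intervals, which cover counting error only. Ratios of sets used genes with at least 5 CPM. Likeness was Pearson's r of log(1 + UMIs per 10000) over genes found in at least 20 barcodes.

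The 10 genes and all lists were chosen with earlier results of these data known. A listed gene could be named if it was called in a bulk comparison or had a UMI in at least 5 barcodes with at least 3 of the 10 genes; zeros, family sums, and other listed genes without a call were named after their values were seen.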

Additional observations from a re-analysis of the deposited data

How the results depend on the processing

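In Oct4+ against Pdgfra+ and in DP against Oct4+, the direction and call of each of the 5 tested genes held under all 15 settings run (DESeq2, other size factors, no filter, 6 libraries alone, the replicate block and each library left out). Without 1 library, 5 to 6 of the genes were called in each of these comparisons, among 4579 to 5035 and 3920 to 4369 of all genes. In DP against Pdgfra+ the calls depended on the setting. Of all genes 552 were called, against 914 with DESeq2, 1023 with no filter and 57 (without Pdgfra+ replicate 3) to 728 with 1 library left out; DP replicates 2 and 3 and Pdgfra+ replicates 1 and 2 gave 124, 121, 363 and 148. Of the 5 genes none was called, against 1 with DESeq2, 2 with no filter, 1 with the replicate block over all 9 libraries or the 6 compared, and 0 to 1 with 1 library left out. Zscan4d had an adjusted p of 0.0013 with DESeq2, 0.00055 with no filter, and 0.0470 and 0.0184 with the block over 9 and over 6 libraries, and Zscan4c one of 0.0481 with no filter; their log2 fold changes ran from 1.90 to 3.40 and from 1.03 to 3.28 over the settings. The cause was not tested. The block changed no other call of the 5 genes. Summing Zscan4 and Tcstv copies left 551, 3923 and 4525 genes called; the eIF1A-like list could not be summed in bulk, where its symbols are absent.

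In -4OHT, 2.62% of barcodes had at least 3 of the genes. The share was 3.97% with at least 2 genes, 2.02% with at least 4, 3.12% with at least 2 of the 4 families, 2.24% among barcodes with at least 1500 genes and at most 10% mitochondrial UMIs, and 1.78% at 5000 UMIs; without the 5% of barcodes with the most UMIs it moved by less than its interval, and so did the +4OHT share under all 6 settings. The summed level of 139 CPM in -4OHT was 99.3 with the filter on barcodes, 150.2 without the deepest 5% and 132 without the top barcode. The level of 14.5 in +4OHT was 12.3 without the deepest 5% and 8.21 without the top barcode. The single-cell values rest on low counts: in -4OHT, 660 of the 966 barcodes with any of the genes held a single UMI of 1 gene. The part of depth was not tested.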

Other observations

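B020031M17Rik and Tcstv1 stood differently in the bulk and the single-cell data. In bulk Oct4+ libraries B020031M17Rik was at 1.57 ± 1.33 CPM (SD, n = 3) and Zscan4d at 237 ± 147, whereas in the -4OHT single-cell library they had 15.6 and 12.9 CPM. Tcstv1 and Tcstv3 were at 1.61 ± 0.42 and 24.2 ± 14.7 CPM in Oct4+ and at 4.25 and 7.56 CPM in -4OHT. The lines, the sorts, the library kits and the counting differ between the data types, and these cannot be told apart.

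The 7 endoderm-led barcodes of -4OHT with at least 3 of the genes had 4 to 223 two-cell UMIs (median 18), and 3 of them had a Pou5f1 UMI. Their summed Epi markers were at 856.1 CPM and their summed endoderm markers at 1565, against 216 and 2540 in endoderm-led barcodes with none of the genes and 1901 and 46.0 in epiblast-led barcodes with none. Doublets were not separated in these barcodes.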
